A study of Homo sapiens with 32 samples.

Results

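The genes described here encode the machinery that holds RNA polymerase II just after a gene's start and then lets it go: the kinase P-TEFb, the 7SK particle that keeps P-TEFb inactive, the pausing factors NELF and DSIF, and the scaffolds of the super elongation complex. The 10 genes HEXIM1, CDK9, CCNT1, CCNT2, NELFA, NELFE, SUPT5H, LARP7, AFF1 and AFF4 are a list of names, out of 24242 genes in the deposited table; the rule uses no measured value, but the list was drawn up with earlier results of these data known. All 10 were in the table and passed the filter on low values, at least 1 FPKM in at least 3 of 7 groups, which kept 22940 genes.

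Newly made RNA was labelled with 5-ethynyl uridine (EU), a uridine analogue that lets new transcripts be captured apart from older ones, and sequenced from the human hepatoma cell line HUH7. Release groups were blocked in 2 mM thymidine, let go, held in mitosis with nocodazole at 0.06 ug/mL, shaken off, washed and replated, and were given 0.5 mM EU for 40 minutes at 0, 40, 80, 105, 165 or 300 minutes of release. An asynchronous culture had the same EU pulse without the block. Each of these 7 groups has 3 samples in the labels, but the table has 1 value per group, in FPKM, a read density scaled to length and library size. No test, replicate error or p-value therefore stands behind any difference below, and differences are described by size alone. Because FPKM is scaled to library size, a change in total new RNA per cell between groups does not show in it. Every level and fold below is therefore relative to the rest of its column. In bulk RNA, more cells making a transcript and more of it made per cell cannot be told apart. All values come from a single cell line, and the columns for unlabelled and spike-in samples that the labels also list were not used here; whether asynchronous spike-in libraries entered the asynchronous column is not stated.

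After it starts a gene, RNA polymerase II commonly stops within the first stretch of DNA, held by NELF and by DSIF, of which SUPT5H encodes the large subunit. P-TEFb, made of the kinase CDK9 and a cyclin T, phosphorylates NELF, DSIF and the polymerase, after which NELF leaves and elongation goes on. Much of the P-TEFb in a cell is bound to the 7SK RNA with HEXIM1, which inhibits the kinase, and LARP7, which protects the RNA's end. AFF1 and AFF4 are scaffolds that bring active P-TEFb to genes. In mitosis most transcription stops, and it resumes as cells leave it.

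In the asynchronous culture the hepatocyte genes AFP, APOB and ALB were at 3964, 4016 and 2295 FPKM, while the blood markers PTPRC, CD79A and CD3E were at 2.11, 0.65 and 9.78 FPKM and HBB was listed at 0. At 0 minutes 5 of 6 hepatocyte markers were at least 2-fold below the asynchronous culture, and CD79A, at 27.3 FPKM, was above it by that much. The 4 stroma and endothelium markers were split: COL1A1 (6.60-fold) and VWF (2.04-fold) were above it, and PECAM1 (2.04-fold) and COL3A1 (1.17-fold) below. The 6 hepatocyte markers summed to 1381 FPKM at 0, 1658 at 80 and 3453 at 300 minutes, against 11939 FPKM in the asynchronous culture. The part of these differences in the members' values was not tested. Relative depth, from the steps in which low values repeat, was between 1 at 0 minutes and 1.87 in the asynchronous culture. Of 1827 pairs of transcripts of a gene with the same genomic span but other exons, 1750 (95.8%) had identical values, against 16372 of 32867 pairs (49.8%) with other spans. At 0 minutes 71 multi-exon transcripts sat at the lowest step by their genomic span and 4 by their exons. The values are therefore read here as density over the whole transcribed span, introns included. Ranks and ratios between genes below are of this density. Whether it is comparable between genes that differ in span or in their share of exons was not tested. If a step is 1 read, the members held at least 591 reads per value and their counting error was between 0.418% and 4.11%, which covers counting alone.

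Promoter sequences were matched for 10 of 10 members in a RefSeq table of the assembly GRCh38.p14. The 3 printed here, the 250 bases before each start, 5′ to 3′ on the gene's strand, are of HEXIM1 (chr17:45148225-45148474, plus strand) and CDK9 (chr9:127785784-127786033, plus), which were highest at 80 minutes, and of AFF4 (chr5:132963635-132963884, minus), which was highest at 165 minutes. Capitals mark matches, on either strand, to 8 motifs chosen after the sequences were seen.
HEXIM1: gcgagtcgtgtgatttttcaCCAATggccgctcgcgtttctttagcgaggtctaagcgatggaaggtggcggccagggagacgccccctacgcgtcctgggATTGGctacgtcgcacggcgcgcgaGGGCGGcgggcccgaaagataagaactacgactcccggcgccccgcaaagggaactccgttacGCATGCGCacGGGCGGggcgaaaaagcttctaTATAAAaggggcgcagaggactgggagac
CDK9: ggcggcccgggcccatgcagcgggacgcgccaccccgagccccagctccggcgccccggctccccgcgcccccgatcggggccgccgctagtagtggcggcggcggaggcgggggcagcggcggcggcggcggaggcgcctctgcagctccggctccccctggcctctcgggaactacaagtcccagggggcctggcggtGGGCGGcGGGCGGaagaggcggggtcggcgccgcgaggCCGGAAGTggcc
AFF4: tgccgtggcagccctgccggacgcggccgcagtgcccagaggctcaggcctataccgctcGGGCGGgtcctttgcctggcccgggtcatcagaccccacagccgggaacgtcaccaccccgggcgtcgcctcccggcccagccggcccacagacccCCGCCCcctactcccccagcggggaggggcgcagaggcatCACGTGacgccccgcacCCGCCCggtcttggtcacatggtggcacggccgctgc

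For 8 of the 10 members, HEXIM1 and AFF4 being the exceptions, the window overlaps an exon of another annotated transcript of the same gene, so it lies before 1 of several starts. Most of the CDK9 window is coding sequence in another CDK9 transcript. The printed windows also overlap other annotated genes: AC142472.1 for HEXIM1, AC010240.3 for AFF4, and MIR2861 and MIR3960 for CDK9. HEXIM1 was the 1 member with the TATA box letters TATAAA, 29 bases before the start, which 10.7% of 35116 RefSeq promoters of this length hold. The octamer GCATGCGC, part of the NRF1 site, lay in the windows of HEXIM1 and CCNT2 and in 2.63% of all promoters. The ETS letters CCGGAAGT lay in those of CDK9, CCNT1 and NELFE, against 3.42% of promoters, and the E-box CACGTG in those of CCNT1 and AFF4, against 6.34%. The GC box GGGCGG was in 9 members (42.6% of promoters) and the CCAAT box CCAAT in 5 members (32%), namely HEXIM1, CCNT1, CCNT2, LARP7 and AFF1. The CRE letters TGACGTCA were in LARP7 alone among the members (1.65% of promoters) and the YY1 letters AAGATGGCG in SUPT5H alone (0.652%), while NELFA held none of the 8. The windows' GC content was between 59.2% (CCNT1) and 82% (CDK9), above the median of 58% over all promoters. These are matches of letters; members that share one did not always share a time of highest value, as HEXIM1 and CCNT2 show.

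**Figure D1:**
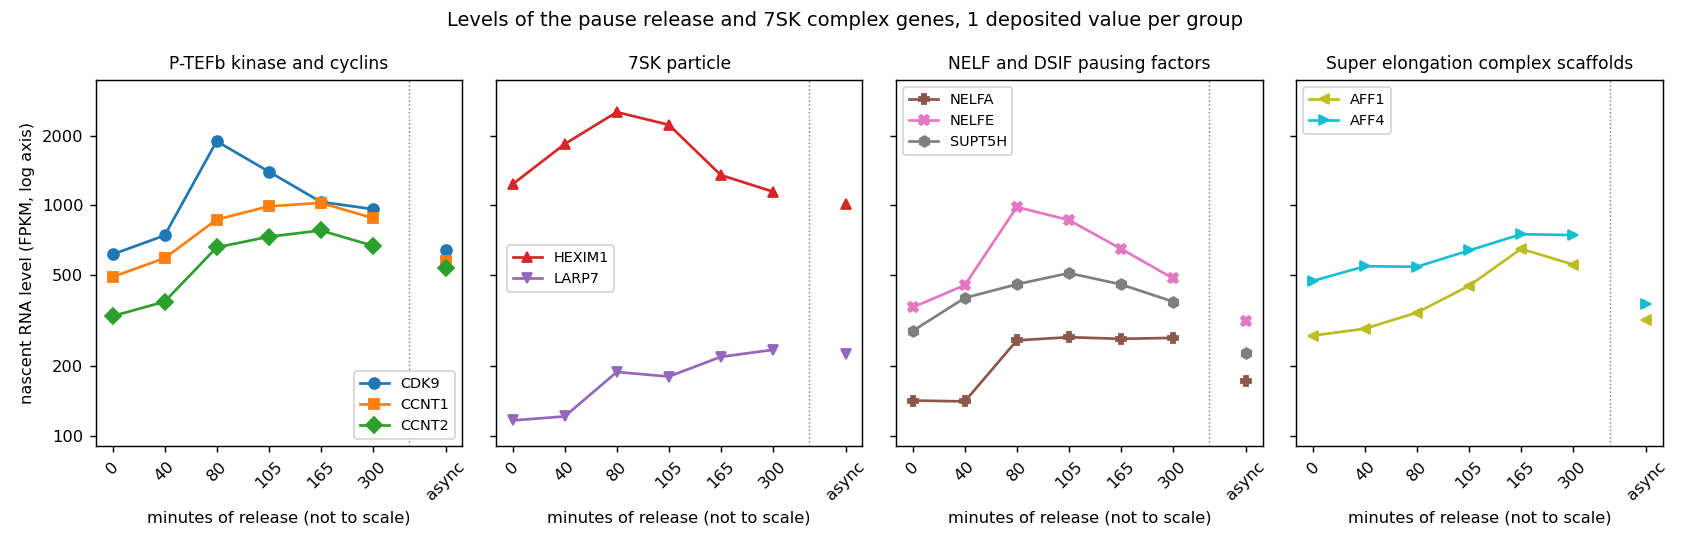
Nascent RNA level (FPKM, log axis) of the 10 members at 6 release times and in the asynchronous culture, 1 deposited value per point, in panels by role. HEXIM1, CDK9 and NELFE are highest at 80 minutes, while CCNT1, CCNT2, AFF1 and AFF4 are highest at 165 minutes.

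HEXIM1, the inhibitor of P-TEFb, had the highest level of the 10 in every column. It was at 1233, 1841, 2533, 2231, 1350 and 1144 FPKM at 0, 40, 80, 105, 165 and 300 minutes, and at 1007 FPKM in the asynchronous culture. Its level at 80 minutes was 2.05-fold that at 0 minutes, the level at 300 minutes was 2.21-fold below that at 80 minutes, and the asynchronous value was the lowest of the 7. HEXIM1 stood above at least 96.9% of all kept genes in each column. At 40 minutes it was already 1.49-fold above 0 minutes, the largest early difference among the members.

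LARP7, the other 7SK protein in the list, went a different way. It was at 116, 121, 189, 180, 220 and 236 FPKM over the release times and at 226 FPKM in the asynchronous culture. LARP7 was thus highest at the last release time and lowest at 0 minutes, where it was 1.93-fold below the asynchronous culture. Its values at 300 minutes and in the asynchronous culture lie within 95% counting error of each other, as do those at 165 minutes and in the asynchronous culture. The same holds at 80 and 105 minutes and at 0 and 40 minutes. The ratio of HEXIM1 to LARP7 was 10.6 at 0 minutes, 15.2 at 40 minutes, 13.4 at 80 minutes, 6.14 at 165 minutes and 4.86 at 300 minutes, against 4.45 in the asynchronous culture.

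CDK9, the kinase of P-TEFb, had the largest difference of the members between 0 and 80 minutes. It was at 611, 739, 1893, 1398.5, 1033 and 961 FPKM over the release times and at 637 FPKM in the asynchronous culture. The value at 80 minutes was 3.09-fold that at 0 minutes and stood alone above the others, while 0 minutes and the asynchronous culture lie within counting error of each other.

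The cyclins CCNT1 and CCNT2, the partners that make CDK9 active, were highest later than CDK9. CCNT1 was at 488, 589, 866, 988, 1023 and 879 FPKM and at 575 FPKM in the asynchronous culture. CCNT2 was at 330, 381, 656, 729, 776 and 667 FPKM and at 534 FPKM in the asynchronous culture. Both were lowest at 0 minutes and highest at 165 minutes, and for both the values at 80 and 300 minutes lie within counting error of each other. CCNT2 was 1.62-fold below the asynchronous culture at 0 minutes, CCNT1 1.18-fold below and CDK9 1.04-fold below. The ratio of CDK9 to CCNT1 was 1.25 at 0, 2.19 at 80 and 1.09 at 300 minutes, against 1.11 in the asynchronous culture. The values of CDK9 thus stood apart from those of CCNT1 mainly at 80 minutes. The ratio of HEXIM1 to CDK9 was 2.02 at 0, 2.49 at 40, 1.34 at 80, 1.595 at 105, 1.31 at 165 and 1.19 at 300 minutes. It was 1.58 in the asynchronous culture. HEXIM1 had the higher value in all 7 columns. These are ratios of new RNA density, and protein was not measured.

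The 2 NELF subunits in the list differed in course. NELFE, the RNA-binding subunit, was at 360, 450, 981, 861, 646 and 481 FPKM over the release times and at 314 FPKM in the asynchronous culture. NELFA was at 142, 141, 259, 267, 263 and 266 FPKM and at 172 FPKM in the asynchronous culture. NELFE peaked at 80 minutes at 2.72-fold its value at 0 minutes and was 2.04-fold lower again at 300 minutes, whereas NELFA was 1.82-fold higher at 80 minutes and then level, its neighbours in rank from 80 to 300 minutes all within counting error. The ratio of NELFE to NELFA was 2.54 at 0, 3.79 at 80 and 1.81 at 300 minutes.

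SUPT5H, the large subunit of DSIF, was at 285, 396, 453, 507, 453 and 381 FPKM over the release times and at 229 FPKM in the asynchronous culture. Its highest value, at 105 minutes, was 1.78-fold its lowest release value, at 0 minutes, and every release value was above the asynchronous one. Among the members SUPT5H had the second largest difference between 0 and 40 minutes, 1.39-fold.

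The scaffolds AFF4 and AFF1 had the smallest differences between 0 and 80 minutes. AFF4 was at 469, 543, 540, 636, 748 and 742 FPKM over the release times and at 371 FPKM in the asynchronous culture. AFF1 was at 272, 291, 342, 446, 646 and 553 FPKM and at 319 FPKM in the asynchronous culture. Both were highest at 165 minutes, where AFF1 was 2.38-fold its value at 0 minutes and AFF4 1.59-fold. For AFF4 the values at 165 and 300 minutes lie within counting error of each other, as do those at 40 and 80 minutes. AFF4 was above the asynchronous culture in all 6 release columns, and AFF1, as the mean of its 2 transcripts, from 80 minutes on. At 80 minutes the longer AFF1 transcript was above the asynchronous culture (349 against 295 FPKM) and the shorter below it (335 against 342 FPKM).

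AFF1 has 2 transcripts with different values, which allow its span to be divided if each value is the density over that transcript's own span. The first 72 kb, in the longer transcript alone, then come to 260, 248, 374, 421.5, 502, 528 and 206 FPKM from 0 to 300 minutes and in the asynchronous culture. The shared 134.1 kb came to 274, 300, 335, 452, 677, 558 and 342 FPKM. Between 0 and 80 minutes the first stretch was 1.44-fold higher and the shared stretch 1.22-fold, and between 80 and 165 minutes the order was the other way round, 1.34-fold and 2.02-fold. SUPT5H and LARP7 also have 2 distinct values each, which lie close together: at 80 minutes 454 and 453 FPKM for SUPT5H, and 190 and 187 FPKM for LARP7.

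**Figure D2:**
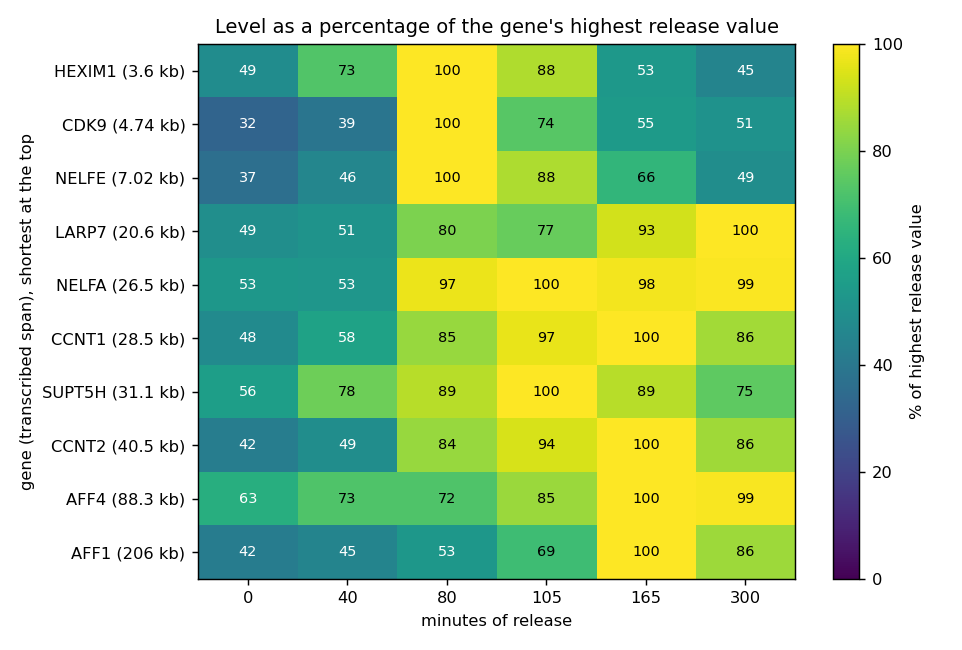
Level of each member at 6 release times as a percentage of its own highest release value (colour and printed number), with genes ordered by transcribed span. The 3 genes shortest in span (HEXIM1, CDK9, NELFE) have their 100% at 80 minutes, and the longest, AFF1, is at 52.9% there and reaches 100% at 165 minutes.

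The 3 members highest at 80 minutes were also the 3 shortest. HEXIM1 spans 3.6 kb, CDK9 4.74 kb and NELFE 7.02 kb, in GENCODE release 29. LARP7 spans 20.6 kb, NELFA 26.5 kb, CCNT1 28.5 kb, SUPT5H 31.1 kb and CCNT2 40.5 kb, and AFF4 and AFF1 reach 88.3 and 206 kb. NELFA and SUPT5H were highest at 105 minutes, CCNT1, CCNT2, AFF1 and AFF4 at 165 minutes and LARP7 at 300 minutes. For AFF4 the highest value lies within counting error of that at 300 minutes. For NELFA the values from 80 to 300 minutes each lie within counting error of the next in rank. At 80 minutes NELFA was at 96.9% of its highest value, so its time of highest value is not settled.

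Span and time did not follow a single order: LARP7, highest last, is shorter than NELFA and SUPT5H. Over all kept genes, those highest at 80 minutes, 23.1% of the kept genes, had a median span of 12.2 kb, those at 105 minutes (12.5%) 17.9 kb, those at 165 minutes (13.1%) 34.2 kb and those at 300 minutes (21.1%) 32.8 kb. Genes highest at 0 minutes (16.4%) or 40 minutes (13.8%), where 0 members were, had median spans of 28.2 and 19 kb. Genes at least 2-fold higher at 80 than at 0 minutes were 37.3% of those under 5 kb, 28.3% of those from 5 to 10 kb, 21.9% from 10 to 30 kb, 12.4% from 30 to 100 kb and 2.33% of those longer. In the shortest class both members, HEXIM1 and CDK9, were past 2-fold, and in the longest class AFF1, at 1.26-fold, was not. The part of span in the members' courses was not tested.

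**Figure D3:**
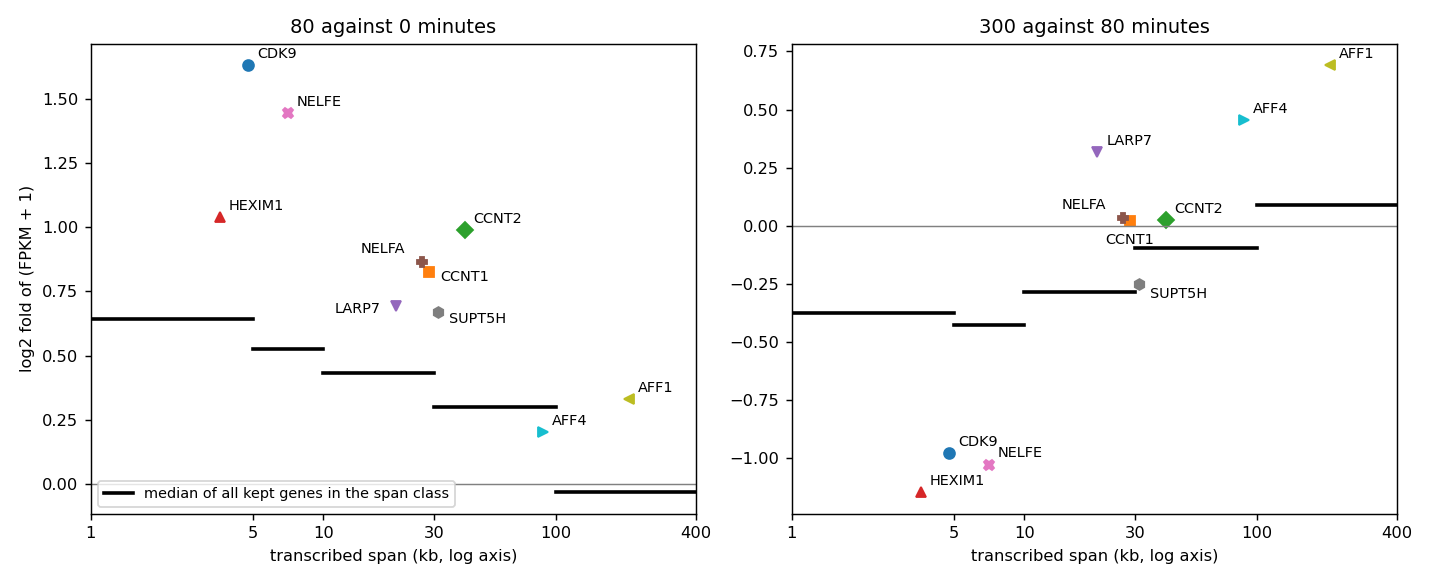
Log2 fold of (FPKM + 1) against transcribed span (kb, log axis) for the 10 members at 80 against 0 minutes (left) and 300 against 80 minutes (right); black bars are the medians of all kept genes in 5 span classes, the outer classes drawn to the axis ends. HEXIM1, CDK9 and NELFE lie highest at left and lowest at right; at left AFF1 and AFF4 are the lowest, and both turn below 0 when columns are scaled to equal medians or quantile normalized.

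Set beside all genes, the members were counted at a size of 2-fold on log2(FPKM + 1), in 5 comparisons that share columns. Of these, 0 minutes enters 3, and 80 minutes, 300 minutes and the asynchronous culture enter 2 each. At 0 minutes against the asynchronous culture 0 members were 2-fold higher and 0 lower, where 14.1% and 19% of all kept genes were. The members' median log2 difference was -0.14, against -0.14 over all genes and -0.40 over the 17525 genes with at least 10 FPKM in 3 groups. The 4 members above the asynchronous culture at this time were HEXIM1, NELFE, SUPT5H and AFF4, and under quantile normalization or equal medians CDK9, CCNT1, NELFA and AFF1 also came above it. Among the genes called in either direction in this comparison, 42.7% were higher as deposited, 68.1% with equal medians and 32.4% with a filter of 10 FPKM.

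At 40 against 0 minutes 0 members were 2-fold apart in either direction, where 3.24% of genes were higher and 2.05% lower. The median of the members was 0.24 and that of all genes 0.10. HEXIM1 (0.58) and SUPT5H (0.47) led, and NELFA (-0.01) was the 1 member not above 0. Under quantile normalization 7 of the 10 changed sign, and with equal medians LARP7 and AFF1 did.

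At 80 against 0 minutes 3 of 10 members were at least 2-fold higher, CDK9 (3.09-fold), NELFE (2.72-fold) and HEXIM1 (2.05-fold), and 0 were lower. Of all genes 20.1% were 2-fold higher and 2.65% lower, so a count of 3 in 10 is near the background. All 10 values were above 0 as deposited, and CCNT2, at 1.98-fold, lay just under the limit. The median was 0.84, against 0.31 over all genes and 0.50 over the 17525 genes with at least 10 FPKM in 3 groups. Scaling each column to the same median gave the members 0.44 against -0.06 for all genes, a gap much like that as deposited. Quantile normalization, which sets all 7 columns to the same distribution, gave the members a median of 0.00 against -0.07 for all genes, with CCNT1, SUPT5H, LARP7, AFF1 and AFF4 below 0. CDK9, NELFE and HEXIM1 then stood at 0.76, 0.50 and 0.26. With equal medians CDK9 and NELFE stayed past 2-fold and AFF1 and AFF4 were below 0, and the share of called genes that were higher went from 88.3% to 60.2%, or 59.8% under quantile normalization.

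At 300 against 80 minutes HEXIM1 (2.21-fold) and NELFE (2.04-fold) were 2-fold lower, where 13.8% of genes were, and 0 members were 2-fold higher, where 8.12% were. CDK9, at 1.97-fold lower, lay just under the limit. AFF1 (1.61-fold), AFF4 (1.37-fold) and LARP7 (1.25-fold) were higher at 300 minutes, and CCNT1, CCNT2 and NELFA differed by 1.03-fold or less. The median was 0.02 against -0.18 over all genes. Among genes called in this comparison 37% were higher as deposited and 50% under quantile normalization, where HEXIM1 and NELFE no longer passed 2-fold. With equal medians NELFE did not.

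At 300 minutes all 10 members were above the asynchronous culture, where 59% of the kept genes were. None reached 2-fold (9.84% of genes were 2-fold higher and 8.57% lower): AFF4, at 1.998-fold, was the nearest, followed by AFF1 (1.73-fold), SUPT5H (1.67-fold) and NELFA (1.54-fold), and LARP7 (1.04-fold) was the least, within its counting error. The median was 0.61, against 0.11 over all genes. It was between 0.595 and 0.62 under the 8 alternatives tried, and no member changed sign. Of these alternatives only equal medians (0.595) and quantile normalization (0.62) rescale the columns, and filters cannot change a member's fold. The 33 other genes of the pathway described below had a median of -0.05 in this comparison, with 0 at least 2-fold higher and 1 lower. The RNA polymerase II and CTD kinase list had a median of 0.095. Whether the members differ from these lists was not tested. At 80, 105 and 165 minutes 9 of the 10 were above the asynchronous culture (63.5%, 62.8% and 58.9% of all genes), with LARP7 the exception. At 165 minutes LARP7 was within counting error of the asynchronous culture, and at 80 minutes AFF1 was above it as the mean of its transcripts but not in the shorter one. In the same comparison at 300 minutes 5 of 6 hepatocyte markers were at least 2-fold lower (median -1.95, APOB by 8.51-fold). Of the other markers CD79A (4.11-fold) and COL1A1 (4.51-fold) were higher, and COL3A1 (1.71-fold) and PECAM1 (1.44-fold) were lower. PTPRC, CD3E and VWF differed by 1.24-fold or less. The part of the markers in the members' difference was not tested.

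**Figure D4:**
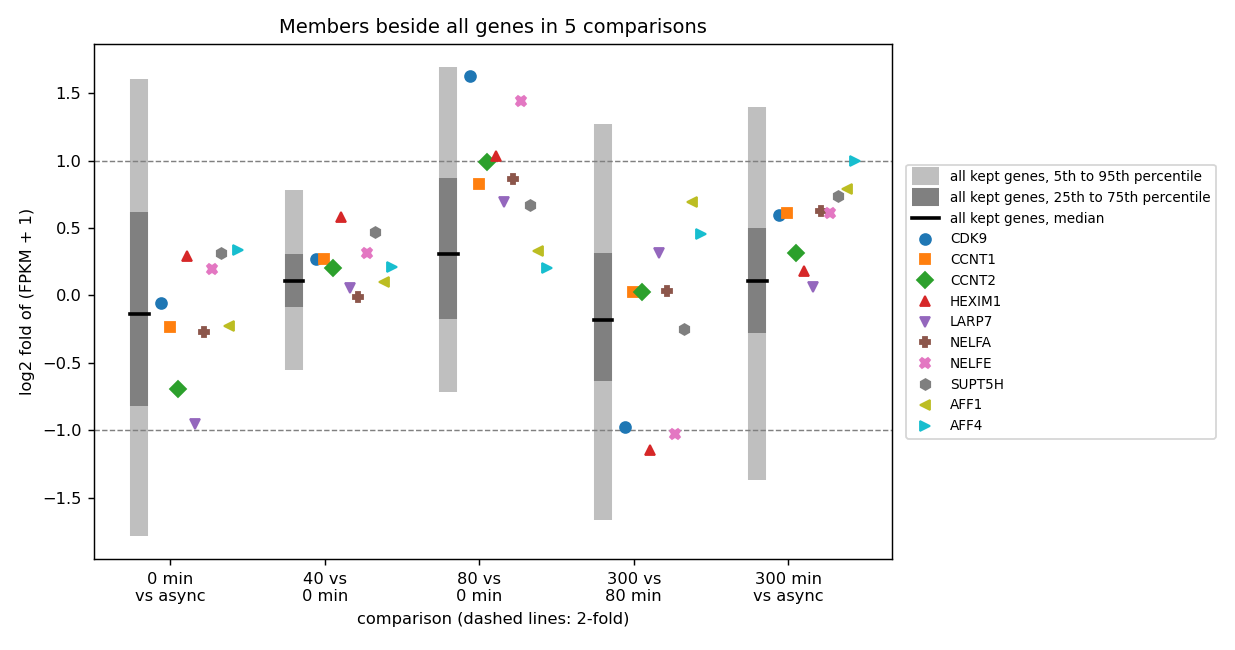
Log2 fold of (FPKM + 1) of each member in 5 comparisons (coloured points), beside the 5th to 95th and 25th to 75th percentiles and the median of all kept genes (grey bars, black line); dashed lines are 2-fold. At 80 against 0 minutes CDK9, NELFE and HEXIM1 lie past 2-fold as deposited, 0 members do under quantile normalization, and at 300 minutes against the asynchronous culture all 10 are above 0.

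Of 34 other genes of the pathway in lists made for this description, 33 were kept; RN7SK, the 7SK RNA itself, was not among the genes matched. At 80 against 0 minutes 8 of these were at least 2-fold higher, near the 20.1% of all genes, 0 were lower, and their median was 0.69. Among the 7SK partners MEPCE, the enzyme that caps 7SK RNA, was at 815 FPKM at 0, 1666 at 80 and 717 at 300 minutes. It was thus 2.04-fold higher and then 2.32-fold lower, like HEXIM1 at these times. Unlike HEXIM1, MEPCE was lowest at 165 minutes (561 FPKM) and was below its asynchronous value (1011 FPKM) at 0, 165 and 300 minutes. The ratio of HEXIM1 to MEPCE was 2.41 at 165 minutes and 0.996 in the asynchronous culture. HEXIM2, the paralogue of HEXIM1, stayed between 50.2 and 70.1 FPKM at release times, and HEXIM1 exceeded it by 20.7-fold to 36.1-fold over the 7 columns. JMJD6, which takes part in the release of P-TEFb from 7SK, was 2.92-fold lower at 300 than at 80 minutes.

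Of the other pausing factors SUPT4H1, the small subunit of DSIF, was 2.86-fold higher at 80 than at 0 minutes (637 against 222 FPKM), where its partner SUPT5H was 1.59-fold higher. NELFB was 1.98-fold higher and NELFCD 1.87-fold. NELFCD was highest at 300 minutes (368 FPKM) and, unlike the NELF members, 2.78-fold below the asynchronous culture at 0 minutes (146 against 409 FPKM), where NELFA was 1.21-fold below and NELFE 1.15-fold above.

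The elongation factor ELL of the super elongation complex had its highest value at 40 minutes (495 FPKM) and was 2.02-fold above the asynchronous culture at 0 minutes. ELL2 was highest at 300 minutes, at 2155 FPKM, against 1143 FPKM at 0 minutes and 1517 FPKM in the asynchronous culture. EAF1, an ELL-associated factor, was 2.91-fold higher at 80 than at 0 minutes. AFF3, related to AFF1 and AFF4, was 5.66-fold below the asynchronous culture at 0 minutes (38.8 against 224 FPKM) and 3.20-fold below at 300 minutes, where AFF1 and AFF4 were above it. Downstream of pausing, CTR9, a subunit of the PAF1 complex, and CCNK, the cyclin of CDK12 and CDK13, were 3.06-fold and 2.84-fold higher at 80 minutes.

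Of 15 genes for RNA polymerase II subunits and CTD kinase parts, 10 were 2-fold higher at 80 than at 0 minutes and 0 were lower, where 20.1% and 2.65% of all genes were. Their median was 1.11, and the pause release genes had a count of 3 of 10 and a median of 0.84, all as deposited. Values of this list and of the other pathway genes under quantile normalization are not given here. POLR2A, the largest subunit, was 1.97-fold higher (1385 against 702 FPKM), POLR2H 3.38-fold and CCNH, the cyclin of the CTD kinase in TFIIH, 2.84-fold. At 300 against 80 minutes 3 of the 15 were 2-fold lower (13.8% of all genes), POLR2L by 4.23-fold, with a median of -0.66. Whether the lists differ was not tested.

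**Figure D5:**
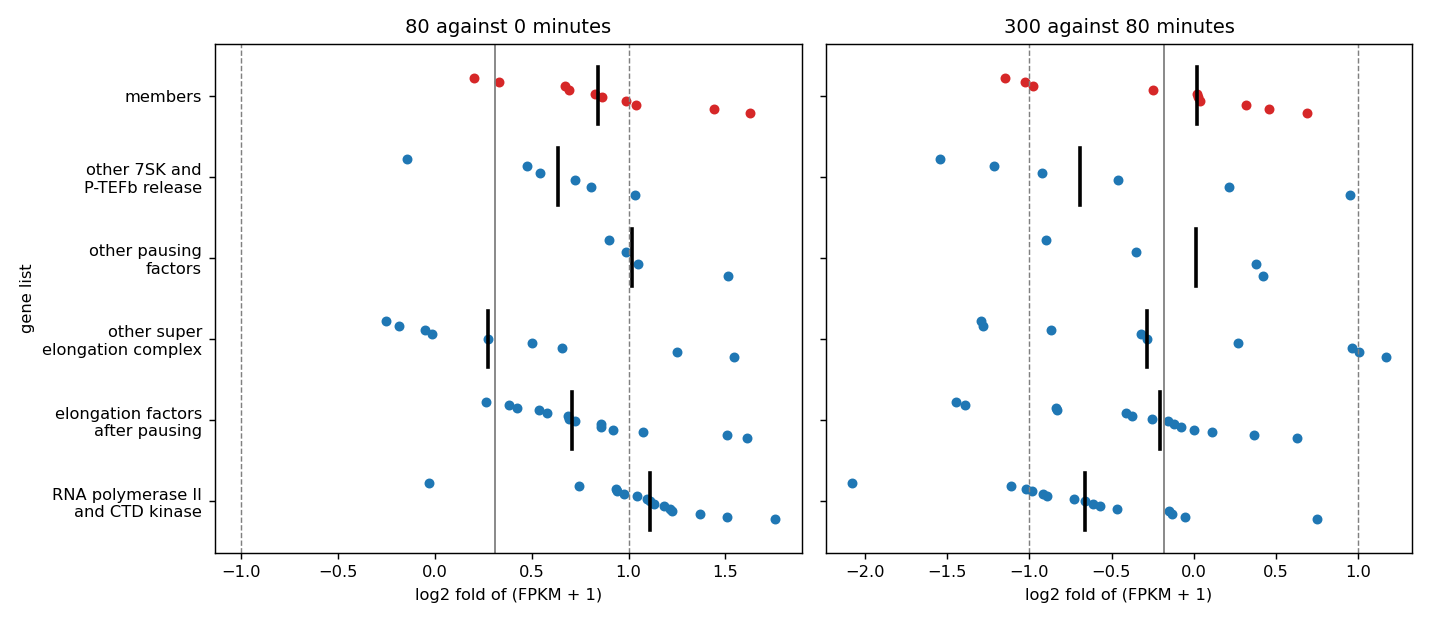
Log2 fold of (FPKM + 1) of single genes (points) in the members (red) and 5 other lists (blue) at 80 against 0 minutes and at 300 against 80 minutes, with list medians (black bars), the median of all kept genes (grey line) and 2-fold (dashed). At left the polymerase and CTD kinase list has its median at 1.11 and the members at 0.84, as deposited. The members' median is 0.00 under quantile normalization, and those of the other lists under it are not given here.

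Genes most like each member in course were ranked over 16119 genes with a mean of at least 10 FPKM by the root mean square difference of centred log2(FPKM + 1) over the 7 columns. NELFA was nearest to BRD10 (0.037), CCNT2 to ZNF317 (0.041), SUPT5H to EIF6 (0.042), LARP7 to ADPGK (0.047) and CCNT1 to SLC35F6 (0.052). AFF4 was nearest to AP3D1 (0.053), AFF1 to ZNF267 (0.057), HEXIM1 to SLC52A2 (0.065), NELFE to TOR1AIP1 (0.070) and CDK9 to LZIC (0.076). No member had another member among its 3 nearest genes. The closest pair of members was CCNT1 and NELFA (0.121), with NELFA ranking 132nd for CCNT1 and CCNT1 117th for NELFA, followed by CCNT2 with NELFA (0.133) and CDK9 with NELFE (0.139). HEXIM1 was 0.31 from its nearest member, SUPT5H.

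Neighbouring genes bear on what the values can hold, since use of strand in counting is not given. CCNT2-AS1 starts head to head with CCNT2 and was at 23.4 FPKM at 0, 61.3 at 80 and 29.5 at 165 minutes, highest at 80 minutes where CCNT2 was highest at 165. SKIC2, head to head with NELFE, was at 81.8 FPKM at 0, 221 at 80 and 250 at 300 minutes, so that it did not share the lower level of NELFE at 300 minutes. RPS16, head to head with SUPT5H, was at 520 FPKM at 0 and 1178 FPKM at 80 minutes, and ZGRF1, head to head with LARP7, stayed between 30.9 and 39.2 FPKM at release times. MIR1236 lies inside NELFE on the same strand, at 224 FPKM at 0 and 957 FPKM at 80 minutes on 5.64 and 35.8 steps, and its reads cannot be told apart from those of NELFE.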

How the data were processed

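Nascent RNA captured after an EU pulse in HUH7 cells was read from 1 deposited table of 48205 RefSeq transcripts. Per the file headers the authors deposited FPKM, 1 column for each of 7 groups. The submitters' processing notes name Bowtie2 2.2.9, TopHat, bedtools, bcl2fastq and the build hg19. Not given in the sources used here are the role of each, the counting and its use of strand, the annotation, how libraries were pooled, and the libraries behind the asynchronous column. Depth is unknown beyond the steps in low values.

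Transcripts were matched to symbols through RefSeq tables of GRCh38.p14 (47127, or 97.8%). A gene's value was the mean of its transcripts' distinct values. Spans came from GENCODE release 29 on GRCh38. A gene was kept where 3 or more columns reached 1 FPKM, and folds were taken on log2(FPKM + 1), which understates those of low genes. Scripts used Python 3.11.15, pandas 2.3.3 and numpy 2.4.6 and were tested on simulated data. A limma test was planned for a table with a column per library; with 1 value per group none could be run, and size is described.

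The members and lists were chosen with earlier results of these data known. Named were all members, HEXIM2, MEPCE, RN7SK, NELFB, NELFCD, SUPT4H1, ELL, ELL2 and POLR2A, up to 8 further listed genes with the largest fold past 2-fold and at least 5 FPKM, and for each member the 3 genes nearest in course. Other values of listed genes are given as counts, and 1 gene that met the rule is not reported here. Alternatives were another pseudocount (0.1 or 5 FPKM), no filter or 10 FPKM, quantile normalization, equal column medians and other ways to join transcripts.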

Additional observations from a re-analysis of the deposited data

How the results depend on the processing

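The 50 member folds were recomputed under 8 alternatives, 400 values in all. Of these, 383 moved by less than 1.5-fold (0.585 on the log2 scale), the limit used in the absence of replicates. The 17 that moved by more were all under quantile normalization, at 0 minutes against the asynchronous culture or at 80 against 0 minutes. The count of 383 is no measure of robustness. Filters cannot change the fold of a member that passes them, and pseudocounts hardly act at the members' levels. Under quantile normalization the members' median was 0.468 instead of -0.14 at 0 minutes against the asynchronous culture, with 1 member (SUPT5H) 2-fold higher, and -0.00221 instead of 0.84 at 80 against 0 minutes, with 0 members 2-fold higher instead of 3. It left 0 members 2-fold lower at 300 against 80 minutes instead of 2, and equal medians left 1. AFF4 passed 2-fold at 300 minutes against the asynchronous culture, as 1 member, with a pseudocount of 0.1 FPKM and under quantile normalization. The cause was not tested. Equal medians moved the all-gene median from -0.14 to 0.19 at 0 minutes against the asynchronous culture and from 0.31 to -0.06 at 80 against 0 minutes. Pseudocounts, filters and the joining of transcripts changed no member's direction. No paired analysis was possible because the table holds 1 value per group. Leaving out a replicate was not run for the same reason. Counting error was at most 4.11% for a member, and the spread between libraries is unknown.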
